A study of Mus musculus with 8 samples.

Results

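The chemokine genes of lymphocytes, Ccl1, Ccl3, Ccl4, Ccl5 and Xcl1, were followed cell by cell through B16-OVA melanoma tumors of C57BL/6 mice given adoptive cell transfer (ACT). The 5 genes were selected on measured values of these same data, out of 27998 genes counted, so their levels are a description and carry no test. Single-cell RNA sequencing by a 10x 5′ assay gave unique molecular identifiers (UMIs, 1 per captured RNA molecule) in CD45+ tumor-infiltrating cells, sorted with an enrichment for CD8+ cells. Every library came from pooled tumors of several mice, and each condition and day was 1 library, so no difference between conditions has a replicate check.

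The 8 libraries were named by the cells transferred. All transferred cells were OT1 CD8+ T cells, which carry a T cell receptor for the ovalbumin peptide that B16-OVA tumors present. The library of non-treated mice carried the day 5 label, although these mice received no cells. Mice given untransduced OT1 cells were sampled at day 5 and day 12. A library at day 12 came from mice given OT1 cells that secreted PD1d, a decoy made of the PD-1 ectodomain fused to an antibody Fc part, together with IL-2v, an engineered IL-2 variant. Another at day 12 came from mice given OT1 cells secreting PD1d and IL-33. A mixture of both engineered populations in equal parts, PD1d/IL-2v/IL-33 ACT, was sampled at days 5, 12 and 26. The engineered genes were carried by the transferred cells, and transferred and host CD8+ T cells were not told apart here.

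Chemokines are small secreted proteins that attract cells carrying the matching receptor. CCL3 and CCL5 bind CCR1, XCL1 binds XCR1 on cross-presenting conventional dendritic cells, and CCL1 binds CCR8, found on regulatory and type 2 T cells. T cells and natural killer (NK) cells make these chemokines after stimulation through their receptors, and CCL5 is also held ready by memory and effector lymphocytes.

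Of 15700 barcodes, 12827 cells passed the filters on genes, UMIs, ribosomal and mitochondrial UMIs, with median depths of 4403 to 7297 UMIs per cell between libraries. Raw marker UMIs placed 4862 cells in a CD8 T gate, 1058 in a CD4 T gate, 1798 in an NK gate, 299 in a type 2 gate (Il1rl1 and Gata3 without Foxp3) and 1408 in a myeloid gate, while 3167 cells (24.7%) met no gate. Cd3e, Ncr1 and Lyz2 were part of the gate rules, so their levels were largely set by the gating. Levels are counts per 1000000 UMIs of the gated cells (CPM), here pooled over libraries. Cd3e lay at 1070 CPM in the CD8 T gate. Ncr1 lay at 597 CPM in the NK gate against 5.17 in the CD8 T gate. Lyz2 lay at 8650 CPM in the myeloid gate against 9.31 in the CD8 T gate. Of markers outside the rules, Klra4 lay at 483 CPM in the NK gate against 3.44 in the CD8 T gate. Cd14 lay at 1240 CPM in the myeloid gate against 3.46 in the CD8 T gate, and Il13 at 3061 in the type 2 gate. Cd2 and Cd5, also outside them, lay at 303 and 107 CPM in CD8 T-gated cells, under the 755 and 399 of CD4 T-gated cells. The untransduced ACT library of day 12 and the non-treated library were small, with 36 and 71 CD8 T-gated cells. The libraries carried 5 batch identifiers, and the step these mark (capture or sequencing) was not stated. Both day 12 libraries of a single module (PD1d/IL-2v and PD1d/IL-33) shared an identifier. In 6 of the 7 comparisons between libraries the identifiers differed, so there the identifier and the condition cannot be told apart. Of all barcode sequences, 143 occurred in 2 or more libraries, at most 17 in a pair.

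All but Xcl1 lie on mouse chromosome 11 (GRCm38.p6): Ccl1 (ENSMUSG00000020702) at chr11:82176666-82179812, Ccl5 (ENSMUSG00000035042) at chr11:83525778-83530518, Ccl3 (ENSMUSG00000000982) at chr11:83647843-83649378 and Ccl4 (ENSMUSG00000018930) at chr11:83648624-83664683. Xcl1 (ENSMUSG00000026573) lies at chr1:164931644-164935522. In RefSeq the spans of Ccl3 and Ccl4 share 755 bases, and the counting annotation was not given in the sources used here, so reads of that stretch could count for either gene.

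The 250 bases before the start of the 3 members found in the RefSeq promoter table (GRCm38.p6) are shown because few cells at high level held 50% of their UMIs, as was also the case for Ccl4. All 3 lie on the minus strand and are written 5′ to 3′ in the direction of transcription, at chr11:82179813-82180062 for Ccl1, chr11:83649379-83649628 for Ccl3 and chr1:164935523-164935772 for Xcl1. Capitals mark GGAAA or its reverse complement TTTCC, the core letters that factors of the NFAT family (activated through the T cell receptor) recognise.
Ccl1: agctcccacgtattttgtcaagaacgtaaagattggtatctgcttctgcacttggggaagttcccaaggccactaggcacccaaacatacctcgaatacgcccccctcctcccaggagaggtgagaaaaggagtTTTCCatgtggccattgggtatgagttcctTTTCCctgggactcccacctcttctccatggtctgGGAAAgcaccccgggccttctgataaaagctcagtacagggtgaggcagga
Ccl3: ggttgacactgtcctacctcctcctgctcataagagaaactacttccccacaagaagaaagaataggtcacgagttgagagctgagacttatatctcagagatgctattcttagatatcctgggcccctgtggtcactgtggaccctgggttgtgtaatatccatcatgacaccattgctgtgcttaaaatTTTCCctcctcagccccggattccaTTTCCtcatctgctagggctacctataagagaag
Xcl1: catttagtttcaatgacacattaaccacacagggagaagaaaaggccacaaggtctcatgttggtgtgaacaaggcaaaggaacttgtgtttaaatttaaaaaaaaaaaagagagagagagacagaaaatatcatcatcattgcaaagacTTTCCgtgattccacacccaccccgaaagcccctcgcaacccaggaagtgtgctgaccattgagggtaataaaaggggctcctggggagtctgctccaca
These letters occurred 3 times in the Ccl1 window (116, 86 and 51 bases before the start), 2 times in that of Ccl3 (59 and 34 bases) and 1 time in that of Xcl1 (100 bases), and 55.6% of 32841 mouse promoter windows of the same length held at least 1. The RUNX letters TGTGGT, held by 14.0% of windows, occurred 1 time for Ccl3 (122 bases) and 1 time for Xcl1 (227 bases), and the T-box letters TCACAC, held by 12.3%, 1 time for Xcl1 (187 bases). On either strand, TGANTCA (AP-1, 6.75% of windows), TGACGTCA (CRE, 1.55%), the NF-kB motif (1.41%, which ends in the NFAT core letters), TATAAA (12.4%) and GCGTGGGCG (EGR, 0.536%) were found in none of the 3 windows. Ccl4 and Ccl5 were named only.

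The first question was which cells carried the chemokine RNA. Ccl5 was the most abundant of the 5, with 551224 UMIs, of which 50.8% lay in CD8 T-gated and 23.5% in NK-gated cells. Xcl1 was a lymphocyte gene in these tumors, with 61.4% of its 48573 UMIs in CD8 T-gated and 20.2% in NK-gated cells against 0.0762% in myeloid-gated cells. Ccl1 was close to a CD8 T-gated gene, since that gate held 87.7% of its 9323 UMIs. Ccl3 and Ccl4 were shared with myeloid cells: of 36413 Ccl3 UMIs, 41.6% lay in CD8 T-gated, 10.9% in NK-gated and 28.1% in myeloid-gated cells, and of 113787 Ccl4 UMIs the shares were 36.3%, 13.0% and 29.9%. Cells that met no gate held between 2.43% (Ccl1) and 22.6% (Ccl5) of a member's UMIs, and 1713 of those 3167 cells had CD3 UMIs without Ncr1. These shares follow the sort, which set how many cells of each kind were loaded.

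Levels were therefore taken per gate, as CPM of the summed UMIs with an exact Poisson 95% interval. Such intervals, and those on ratios and shares throughout, cover counting error only. Over all libraries, Ccl3 lay at 783 CPM (768 to 798) in myeloid-gated, 392 (386 to 398) in CD8 T-gated and 345 (334 to 356) in NK-gated cells. Ccl4 lay at 2599 CPM (2572 to 2627) in myeloid-gated, 1286 (1266 to 1307) in NK-gated and 1068 (1057 to 1078) in CD8 T-gated cells. For both genes the myeloid gate was the highest of these 3 over all libraries, but not within each. In day 5 PD1d/IL-2v/IL-33 ACT, CD8 T-gated cells were above myeloid-gated cells (1345 against 376 CPM for Ccl3 and 2926 against 2284 for Ccl4). In PD1d/IL-33 ACT, NK-gated cells were (710 against 425 and 2353 against 1267), but 1 NK-gated cell held 162 of the 266 Ccl3 UMIs. For Ccl4, NK-gated cells were also above myeloid-gated cells in day 26 PD1d/IL-2v/IL-33 ACT (979 against 799). Ccl5 lay at 11254 CPM (11193 to 11315) in NK-gated, 7243 (7217 to 7270) in CD8 T-gated, 1586 (1554 to 1618) in CD4 T-gated and 252 (244 to 261) in myeloid-gated cells. Xcl1 lay at 851 CPM (835 to 868) in NK-gated and 771 (762 to 779) in CD8 T-gated cells against 41.5 (36.5 to 46.9) in CD4 T-gated cells. Ccl1 lay at 211 CPM (207 to 216) in CD8 T-gated, 53.9 (49.7 to 58.3) in NK-gated and 38.5 (33.7 to 43.8) in CD4 T-gated cells. UMIs of a 5′ assay count 1 end per molecule, so genes can be set beside each other only as far as their 5′ ends were captured alike.

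The remaining gates were low or very particular. Type 2-gated cells had 3 Xcl1 UMIs in 299 cells, Ccl5 at 166 CPM (149 to 184), and 28 of the 52 Ccl4 UMIs came from a single cell. A pair of small dendritic gates stood apart, although with too few cells per library for a level by library. The 40 cells of the plasmacytoid dendritic cell (pDC) gate, with Siglech at 1610 CPM, held Ccl4 at 5456 CPM (5200 to 5722), with a UMI in 80% of cells, against Ccl3 at 283 CPM (227 to 348) with a UMI in 12.5%. In that gate Ccl4 UMIs were seen in every library with more than 1 such cell, from 43 UMIs in 5 cells of PD1d/IL-2v ACT to 703 UMIs in 15 cells of day 5 PD1d/IL-2v/IL-33 ACT, and the single pDC-gated cells of the non-treated and day 12 PD1d/IL-2v/IL-33 ACT libraries had 9 and 0. The 68 cells of the mature dendritic cell gate, with Fscn1 at 4074 CPM, held Ccl5 at 4733 CPM (4565 to 4905), with a UMI in 89.7% of cells, while Ccl3 and Ccl4 gave 2 and 6 UMIs and Xcl1 gave 3. Ccl5 and Ccl4 were thus found at high level in different dendritic gates. A single pDC-gated cell of day 5 untransduced ACT, with 16076 UMIs, held 181 of the gate's 189 Ccl5 UMIs and all 89 of its Xcl1 UMIs.

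**Figure D1:**
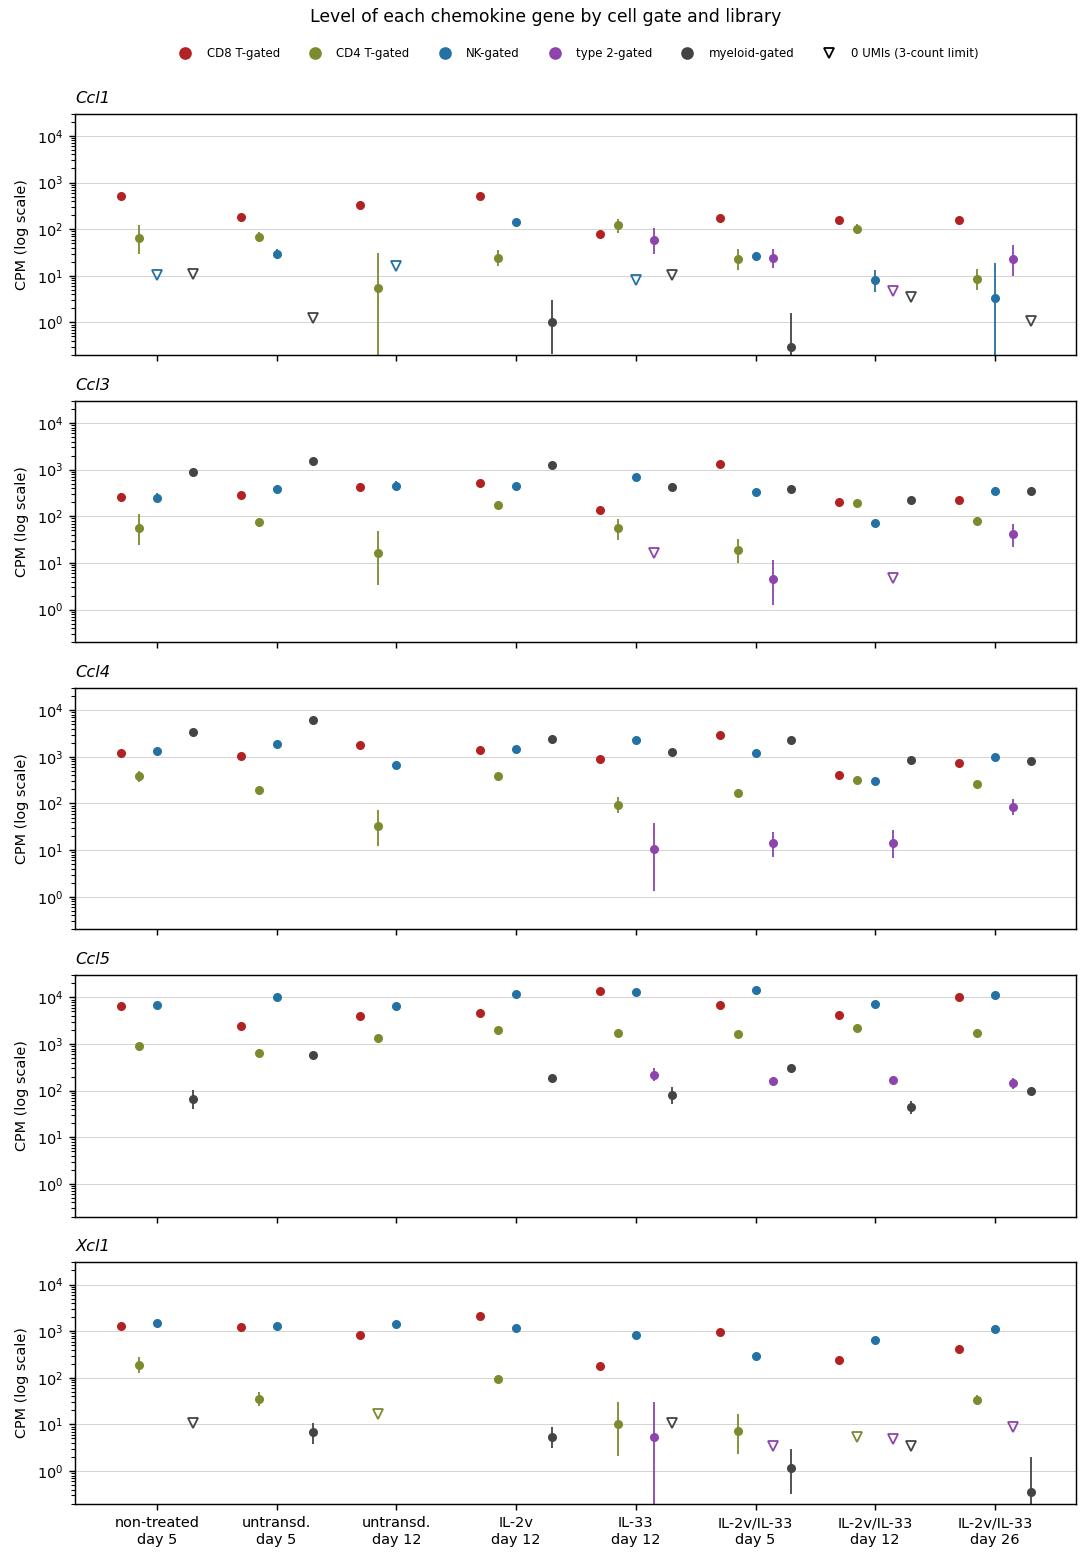
Level of each chemokine gene (CPM of summed UMIs, log scale) by cell gate, with 1 point per library and exact Poisson 95% intervals, and libraries in a fixed order from left to right. Ccl5 in NK-gated cells lies between 6408 and 14308 CPM in all 8 libraries, while Xcl1 and Ccl1 in myeloid-gated cells lie at or under 6.74 and 1.02 CPM.

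Receptor RNA, pooled over libraries, was set beside the ligands. Ccr1, a receptor of CCL3 and CCL5, lay at 188 CPM in myeloid-gated cells and at most at 24.8 in the other gates. Ccr8, the receptor of CCL1, lay at 301 CPM in CD4 T-gated and 152 in type 2-gated cells against 35.0 in CD8 T-gated cells. Xcr1 lay at or under 9.53 CPM in every gate when pooled. By library with at least 20 cells of a gate, its highest value was 42.6 CPM, in myeloid-gated cells. No gate was made for cross-presenting conventional dendritic cells, so the level of Xcr1 in them was not measured. Ccrl2, an atypical chemokine receptor, lay at 910 CPM in myeloid-gated cells, Ccr3 at 9.62 or less, and Ackr2 at 0 in each of the 5 main gates. Ligand and receptor RNA were thus highest in different gates for CCL1 and CCR8.

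Within CD8 T-gated cells the 5 genes did not follow a common order over the libraries, which are given as non-treated day 5, untransduced ACT day 5 and day 12, PD1d/IL-2v ACT day 12, PD1d/IL-33 ACT day 12, and PD1d/IL-2v/IL-33 ACT days 5, 12 and 26. Ccl3 lay at 258, 290, 423, 525, 137, 1345, 202 and 226 CPM. Ccl4 lay at 1213, 1026, 1762, 1398, 887, 2926, 407 and 733 CPM. Both were highest in day 5 PD1d/IL-2v/IL-33 ACT, with intervals of 1311 to 1380 for Ccl3 and 2875 to 2978 for Ccl4, and the neighbouring library in order was PD1d/IL-2v ACT for Ccl3 and day 12 untransduced ACT for Ccl4. Ccl5 lay at 6416, 2477, 4076, 4642, 13367, 6965, 4241 and 10388 CPM. It was highest in PD1d/IL-33 ACT (13212 to 13524) and lowest in day 5 untransduced ACT (2432 to 2522), while day 12 untransduced ACT (3828 to 4337) and day 12 PD1d/IL-2v/IL-33 ACT (4192 to 4290) did not differ beyond their intervals. Xcl1 lay at 1268, 1212, 818, 2077, 179, 974, 244 and 409 CPM. PD1d/IL-2v ACT was highest for Xcl1 (2039 to 2117) and PD1d/IL-33 ACT lowest (161 to 197), the library in which Ccl5 was highest. Ccl1 lay at 511, 182, 330, 511, 79.4, 173, 160 and 156 CPM. The non-treated (446 to 583) and PD1d/IL-2v (492 to 531) libraries were highest and did not differ beyond their intervals, nor did the 3 PD1d/IL-2v/IL-33 ACT libraries, at 161 to 186, 150 to 169 and 150 to 162.

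The same libraries in NK-gated cells gave other orders. Xcl1 lay at 1510, 1286, 1431, 1151, 847, 296, 650 and 1123 CPM, lowest in day 5 PD1d/IL-2v/IL-33 ACT (277 to 315). Ccl4 lay at 1303, 1882, 678, 1480, 2353, 1216, 308 and 979 CPM, and Ccl3 at 252, 392, 457, 447, 710, 329, 70.3 and 356 CPM. Both were highest in PD1d/IL-33 ACT and lowest in day 12 PD1d/IL-2v/IL-33 ACT, but 1 NK-gated cell held 162 of the 266 Ccl3 UMIs (60.9%) of the former. Ccl5 lay at 6925, 10043, 6408, 11641, 13300, 14308, 7238 and 11017 CPM, with the highest 2.23-fold above the lowest, a narrower span than any other member had in either gate. Ccl1 lay at 0, 29.7, 0, 144, 0, 26.8, 8.11 and 3.42 CPM. The 3 NK zeros allow up to 10.4, 16.1 and 8.01 CPM (3 counts), and in each library with Ccl1 a single NK-gated cell held at least 50% of its UMIs, such as 259 of 455 in PD1d/IL-2v ACT.

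Myeloid-gated cells were counted in the 7 libraries with at least 20 of them, all but day 12 untransduced ACT. Ccl4 lay at 3415, 6215, 2395, 1267, 2284, 837 and 799 CPM, and Ccl3 at 881, 1554, 1258, 425, 376, 222 and 354 CPM. Day 5 untransduced ACT was highest for both (6116 to 6317 and 1505 to 1605), and days 12 and 26 of PD1d/IL-2v/IL-33 ACT were the 2 lowest for both. Ccl5 lay between 44.6 and 568 CPM there. In CD4 T-gated cells Ccl5 lay between 630 and 2165 CPM, Ccl4 between 33.2 and 396, Ccl3 between 16.6 and 189, Xcl1 between 0 and 191 and Ccl1 between 5.54 and 120, each library resting on 23 to 398 cells.

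The spread of UMIs over single cells separated Ccl5 from the other 4 members. Each cell was thinned at random to 2000 UMIs, so that shares of cells with a UMI could be set beside each other at 1 depth, and the share expected if the same UMIs were spread evenly was computed from the mean. Ccl5 was found in 66.2, 59.5, 77.8, 74.9, 94.6, 78.5, 65.9 and 93.1% of CD8 T-gated cells, in the library order above. Its UMIs were more broadly held than those of the other 4 members, but not evenly. Between 9.38% and 20.3% of the cells carried 50% of them, where an even spread would take about 50% of the cells. The median cell had 7 to 62 Ccl5 UMIs before thinning. Ccl1 was found in 7.04, 6.18, 5.56, 9.48, 0.573, 5, 5.95 and 1.57% of CD8 T-gated cells, where an even spread would have given 13.0% to 65.2%. Between 0.269% and 2.78% of the cells carried 50% of the Ccl1 UMIs, and in 3 libraries that was 1 cell: 159 of 220 UMIs in the non-treated library, 65 of 81 in day 12 untransduced ACT and 142 of 169 in PD1d/IL-33 ACT. Few cells at high level thus made up the Ccl1 signal, and the equal levels in the non-treated and PD1d/IL-2v libraries rested on 1 and 7 cells for 50% of the UMIs.

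Ccl3, Ccl4 and Xcl1 lay between these extremes, although nearer to Ccl1. Ccl4 was found in 17.6% to 42.3% of CD8 T-gated cells by library, where an even spread would have given 64.2% to 98.3%, and 1.25% to 2.82% of the cells carried 50% of its UMIs. Ccl3 was found in 6.66% to 18.3% (even spread 25.1% to 80.9%), with 0.567% to 5.63% of the cells carrying 50%. Xcl1 was found in 28.2, 34.5, 16.7, 34.2, 6.02, 15.4, 15 and 8.5% of cells, with 0.448% to 2.82% carrying 50%. For comparison, Ccl4 was found after the same thinning in 0% to 3.57% of type 2-gated cells by library, at a median depth of 5933 UMIs. Single CD8 T-gated cells reached 1802 Ccl4 UMIs and 970 Ccl3 UMIs in day 5 PD1d/IL-2v/IL-33 ACT, 1129 Xcl1 UMIs at its day 26, and 303 Ccl1 UMIs in PD1d/IL-2v ACT. The highest 1% of cells carried 47.1% to 100% of Ccl1, 18.0% to 68.3% of Ccl3, 32.4% to 60% of Ccl4, 32.2% to 71.6% of Xcl1 and 5.23% to 17.8% of Ccl5 UMIs by library. As a background, Xcl1 and Ccl1, which myeloid cells should lack, were found after the same thinning in 0% to 1.05% of myeloid-gated cells, whose median depth of 9078 UMIs was above the 6194 of CD8 T-gated cells. The Ccl1 shares of 0.573% and 1.57% in PD1d/IL-33 ACT and day 26 PD1d/IL-2v/IL-33 ACT were close to that range. It is no background for the more abundant Ccl5. After the same thinning Ccl5 was found in 13.1% to 21.9% of type 2-gated cells by library. In cells gated on the B cell genes Cd79a and Ms4a1 it was found in 3.23% to 16.1%.

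The share of cells and the level did not rank the libraries alike. For Ccl4 in CD8 T-gated cells, day 5 PD1d/IL-2v/IL-33 ACT had the highest level, 2926 CPM, but a UMI in 23.5% of cells, under the 30.3% of day 5 untransduced ACT at 1026 CPM and the 34.3% (733 CPM) of day 26 PD1d/IL-2v/IL-33 ACT. In that day 5 library 6 cells carried 50% of the Ccl4 UMIs and 6 cells carried 50% of the Ccl3 UMIs. Without its 1% of cells highest in the gene, Ccl4 lay at 1600 CPM against 635 in day 5 untransduced ACT treated alike, and Ccl3 at 728 against 162. Both genes thus remained higher in that library. For Ccl1, leaving out the highest 1% of cells lowered PD1d/IL-33 ACT from 79.4 to 0 CPM and day 26 PD1d/IL-2v/IL-33 ACT from 156 to 8.17 CPM, but PD1d/IL-2v ACT only from 511 to 276.

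NK-gated cells held Xcl1 more evenly than CD8 T-gated cells did. Xcl1 was found in 59.4, 46.4, 42.9, 53.9, 38.6, 22.6, 34.7 and 46.8% of NK-gated cells, above the share in CD8 T-gated cells in each of the 8 libraries, and 3.45% to 9.52% of the cells carried 50% of its UMIs. Ccl4 was found in 24.1% to 44.6% of NK-gated cells, with 2.41% to 9.52% carrying 50%, and Ccl5 in 66.8% to 96.4%, with 11.6% to 20.4% carrying 50%. In myeloid-gated cells Ccl4 was found in 27.9% to 70.0% and Ccl3 in 16.8% to 55.7% of cells, and 4% to 11.5% of the cells carried 50% of the Ccl4 UMIs. The largest Ccl4 count of a myeloid-gated cell, 449 UMIs, was below that of a CD8 T-gated cell, although the gate's level was higher.

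**Figure D2:**
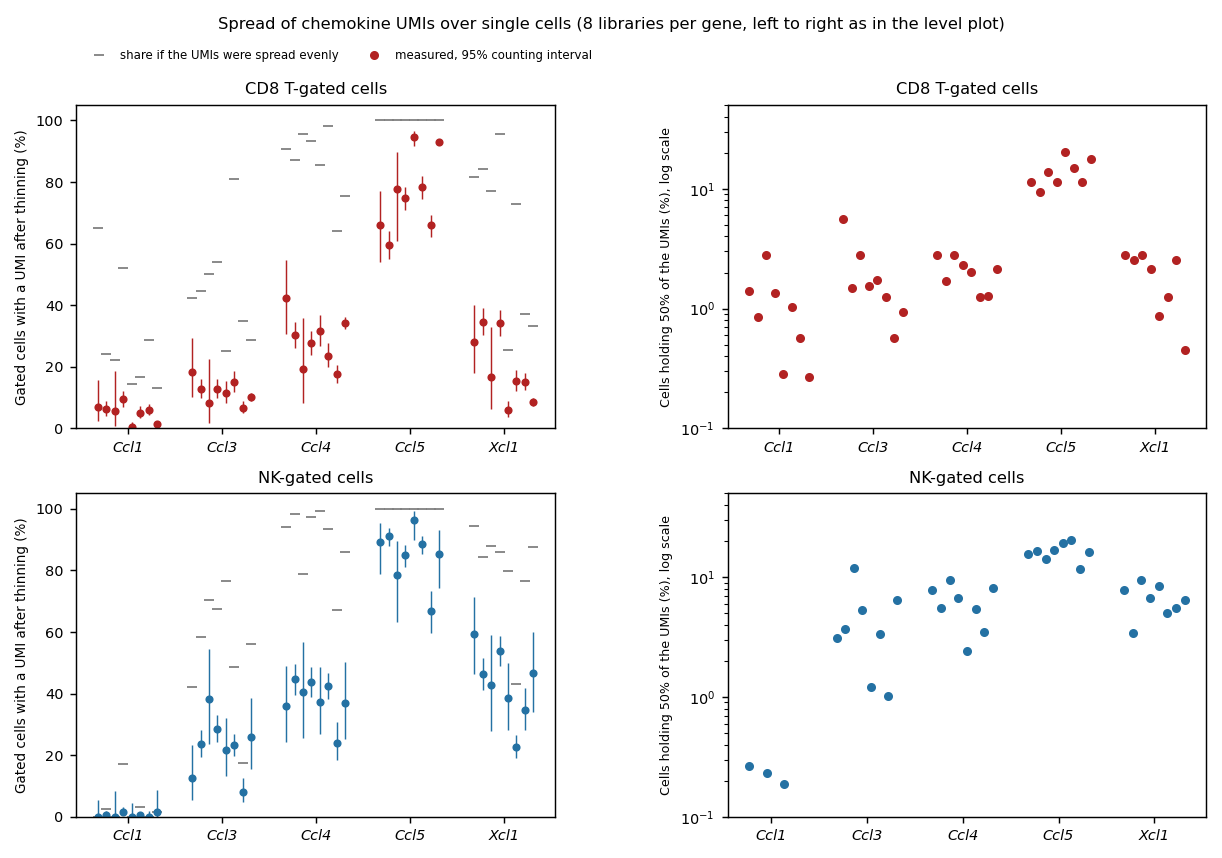
Share of cells with a UMI after thinning to 2000 UMIs and share of cells holding 50% of the UMIs (log scale), for each gene in CD8 T-gated and NK-gated cells, with 1 point per library. In CD8 T-gated cells Ccl5 lies at 59.5% to 94.6% of cells and needs 9.38% to 20.3% of them for 50% of its UMIs, while Ccl1 needs 0.269% to 2.78%.

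High cells of one member were often high for another. Taking in each library the smallest set of CD8 T-gated cells that held 50% of a member's UMIs, the Ccl3 and Ccl4 sets shared 38 cells, 66.7% of the 57 Ccl3 cells and 40.9% of the 93 Ccl4 cells. Ccl1 and Xcl1 shared 17 cells, 58.6% of 29 and 27.0% of 63. Ccl3 and Xcl1 shared 13 cells (22.8% and 20.6%), and Ccl1 and Ccl5 shared 0 of 29 and 735. Ccl4 and Xcl1 shared 23 cells (24.7% and 36.5%), Ccl1 and Ccl4 shared 9 (31.0% and 9.68%), and Ccl4 and Ccl5 shared 19 (20.4% and 2.59%). By share, the largest overlaps were those of Ccl3 with Ccl4 and of Ccl1 with Xcl1. The 735 Ccl5 cells were out of 4862 CD8 T-gated cells, so some overlap with them is expected without any link. Choosing the sets on raw UMIs favours deep cells in each, and the overlap that depth alone would give was not computed. In NK-gated cells the Ccl3 and Ccl4 sets shared 31 cells (44.9% of 69 and 30.4% of 102). The Ccl5 sets there, 310 of 1798 cells, held 39.1% of the Ccl3 and 34.3% of the Ccl4 cells. The Ccl3 and Ccl4 sets of myeloid-gated cells shared 47 (56.0% of 84 and 42.7% of 110).

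Presence in the same cell, after thinning, went the same way. Pooled over libraries, Ccl4 was found in 73.2% of CD8 T-gated cells with Ccl3 and in 24.2% of those without, higher in 7 of the 7 libraries with at least 10 cells that had Ccl3. Xcl1 was found in 75% of cells with Ccl1 and 13.2% of those without (higher in 5 of 5 libraries), and Ccl3 in 41.0% against 9.63% (5 of 5). Ccl5 was the exception for Xcl1: it was found in 63.8% of CD8 T-gated cells with Xcl1 and in 85.5% of those without, lower in 7 of 7 libraries, from 63.2% against 66.3% in day 12 PD1d/IL-2v/IL-33 ACT to 45.0% against 74.5% in the non-treated library. With Ccl4 it went the other way, at 92.1% against 77.9% (higher in 7 of 7). NK-gated cells gave the same pair of directions for Ccl5, at 77.9% against 91.1% with Xcl1 (lower in 8 of 8) and 97.1% against 78.2% with Ccl4 (higher in 8 of 8). For Xcl1 and Ccl4 the gates parted, since Xcl1 was more frequent with Ccl4 in CD8 T-gated cells (19.1% against 14.1%, 7 of 7 libraries) and less frequent in NK-gated cells (33.8% against 43.9%, lower in 6 of 8). Cells of a library are not replicates, and pooled shares mix libraries of different levels. Between 43.7% and 68.0% of CD8 T-gated cells had none of the 4 members other than Ccl5, and 1.70% to 9.86% had at least 3 of them. The 5 genes together took 0.519% to 1.46% of all UMIs of CD8 T-gated cells, and 16.4% of the UMIs of the highest single cell, in day 5 PD1d/IL-2v/IL-33 ACT.

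High cells were also compared with the remaining CD8 T-gated cells of their library for 16 activation genes, where a library had at least 5 high cells. By the median over libraries, 13 of the 15 genes with a value were at least 2-fold higher in Ccl3-high cells, beside 12.6% of all genes in the same split, and 13 of 15 in Ccl4-high cells, beside 9.19%. In Xcl1-high cells it was 12 of 15 beside 11.0%, in Ccl1-high cells 9 of 14 beside 16.1%, and in Ccl5-high cells 0 of 15 beside 1.46%, with 2 at least 2-fold lower. Il2 had a value in 1 library for Xcl1. In NK-gated cells 7 of 13 were higher with Ccl3 (5.68% of all genes), 7 of 13 with Ccl4 (3.80%), 5 of 13 with Xcl1 (3.37%) and 1 of 13 with Ccl5 (1.38%). Among these, Csf2, Egr2 and Tnf rested on 1 library each for Ccl3 and Ccl4, and Csf2 on 1 for Xcl1. At least 2-fold lower in NK-gated cells were 1 gene with Xcl1 (Tnf, −2.34, in 1 library) and 3 with Ccl5. Ifng, which encodes interferon-gamma, was higher in Ccl3-high cells in 5 of 5 libraries, by a median of 4.33 on the log2 scale (3.55 to 5.33), and in Ccl4-high cells in 6 of 6, by 3.81 (2.17 to 4.89). Csf2, the cytokine GM-CSF, was higher by 4.0 in 4 of 4 libraries for Ccl3 and by 3.42 in 5 of 5 for Xcl1 (1.08 to 5.73). Crtam, a receptor of activated cytotoxic T cells, was higher by 3.05 (2.62 to 3.34) in Xcl1-high cells in 5 of 5 libraries. Myc, a growth regulator, was higher by 2.42 in Ccl3-high (2.10 to 2.78) and 1.93 in Xcl1-high cells (1.79 to 3.45), in 5 of 5 libraries each, and Irf4, a transcription factor induced by antigen receptor signals, by 2.14 and 2.25. Ccl1-high cells could be compared in 3 libraries, where Crtam was higher in 3 of 3 by a median of 2.27 and Csf2 in 2 of 3 by 2.63. Genes such as Cd69 (0.23 for Ccl3) and Egr1 (−0.03) lay near the level of the remaining cells. For Ccl5-high cells none of the medians exceeded 0.36, Ifng was higher in 2 of 7 libraries (median −0.43) and Csf2 in 1 of 5 (median −1.61).

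Pooled over libraries, the high cells were also the deep cells, except for Ccl5. The 29 Ccl1-high CD8 T-gated cells had a median of 19263 UMIs against 6175 in the rest, the 63 Xcl1-high cells 13434 against 6143, the 57 Ccl3-high cells 11402 against 6166 and the 93 Ccl4-high cells 10503 against 6134. The 735 Ccl5-high cells had 6199 against 6192. By library this did not always hold: Ccl3-high cells had 8168 against 8115 UMIs in day 5 untransduced ACT and 5308 against 5322 in PD1d/IL-33 ACT. Ccl5-high cells had 5999 against 8430 in day 12 PD1d/IL-2v/IL-33 ACT. The sets were chosen on raw UMIs, a choice that favours deep cells. Doublets were not called. For the markers of myeloid and NK cells in these sets, Lyz2 lay at 16.6 (9 UMIs), 12.0, 8.43 and 7.36 CPM in Ccl1-, Xcl1-, Ccl3- and Ccl4-high cells against 9.20 to 9.37 in the rest, and Ncr1 at 0, 4.01, 4.82 and 4.09 CPM against 5.18 to 5.24. Cells with 5 or more UMIs of a myeloid marker sum that includes Lyz2 were left out of the CD8 T gate. Mixed CD8 T and myeloid cells therefore cannot be judged by these Lyz2 values. Doublets of 2 CD8 T cells were not tested. The study used a stricter filter for a later experiment. It had upper limits of 3000 genes and 12000 UMIs, and asked for under 5% mitochondrial and under 50% ribosomal UMIs. Outside this filter lay 75.9% of Ccl1-high, 68.3% of Xcl1-high, 61.4% of Ccl3-high and 48.4% of Ccl4-high cells, against 23.3% to 23.6% of the rest. Cells could fail it by any of these limits, so the shares do not count deep cells alone. In NK-gated cells the Ccl4-high cells had a median of 5487 UMIs against 5448 and the Ccl3-high cells 5812 against 5437. The NK-gated Xcl1-high cells were deeper, at 8182 against 5338, and 34% of them lay outside the later filter against 10.4%.

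**Figure D3:**
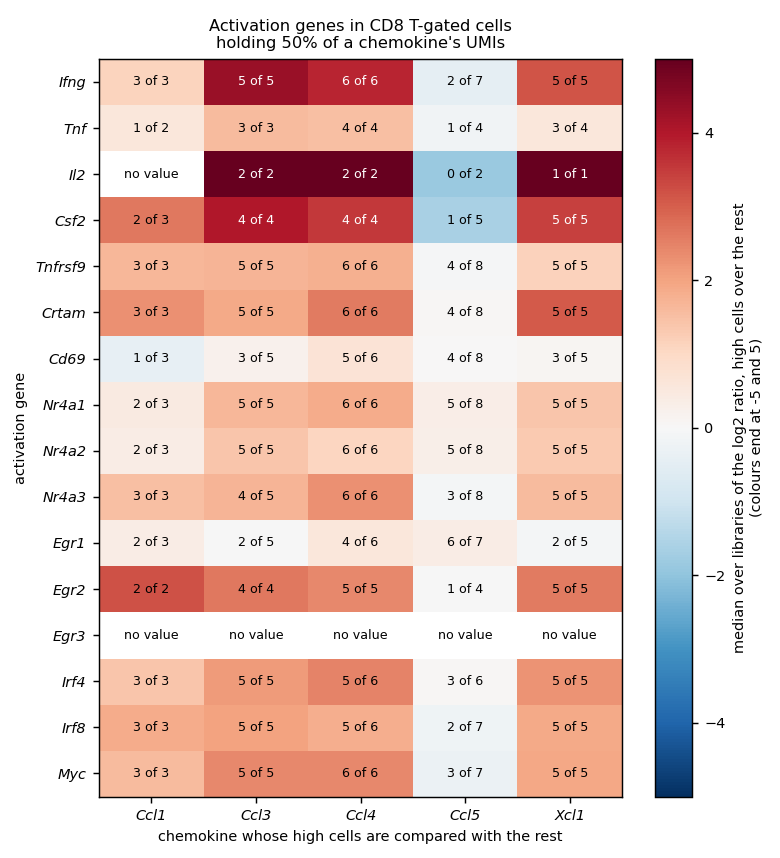
Log2 ratio of activation genes in CD8 T-gated cells holding 50% of a chemokine's UMIs over the remaining cells of the same library, as the median over libraries (colour), with 1 column per chemokine. Each tile prints the libraries in which the gene was higher, of those with a value. Ifng stands at 4.33 for Ccl3 and at −0.43 for Ccl5.

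The design implies 7 comparisons between libraries, made within CD8 T-gated and NK-gated cells as log2 ratios of CPM with 95% counting intervals. A change of at least 2-fold was counted, beside the share of all genes with at least 50 UMIs that moved as much. The comparison of PD1d/IL-2v/IL-33 ACT with untransduced ACT on day 5 asked what the engineered cells added. In CD8 T-gated cells Ccl3 was 4.63-fold higher (log2 2.21, 2.13 to 2.30), Ccl4 2.85-fold (1.51, 1.46 to 1.56) and Ccl5 2.81-fold (1.49, 1.46 to 1.52), whereas Ccl1 (−0.07, −0.21 to 0.07) and Xcl1 (−0.31, −0.37 to −0.26) stayed within 2-fold. So 3 of 5 members passed 2-fold against 11.9% of all genes, which had a median of −0.13. With the later filter the Ccl4 ratio was 0.49 and the Ccl3 ratio 1.24. The Ccl1 ratio ran from −1.83 to 0.14 over 8 alternative settings and was past 2-fold in 1 of them. NK-gated cells had Xcl1 4.35-fold lower (−2.12, −2.23 to −2.01), Ccl3 at −0.25 and Ccl4 at −0.63, so 1 of 5 members passed against 14.6% of all genes.

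Untransduced ACT over non-treated tumors at day 5 gave 2 of 5 members past 2-fold in CD8 T-gated cells, against 8.89% of all genes. Ccl1 was lower by 2.81-fold (−1.49, −1.71 to −1.27) and Ccl5 by 2.59-fold (−1.37, −1.43 to −1.31), and the 71 non-treated cells carried 159 of their 220 Ccl1 UMIs in 1 cell. Without the highest 1% of cells the Ccl1 ratio was −0.87, and with the later filter the Ccl5 ratio was −0.65. In NK-gated cells 1 of 5 members, Ccl1, passed, against 4.99% of all genes. It had 61 UMIs in 377 cells of untransduced ACT and none in 64 non-treated cells. Setting the latter to a floor of 3 counts gave a ratio of 2.87-fold, a bound that covers counting error only. After thinning, Ccl1 was found in 2 of the 377 cells, so its absence from 64 cells cannot show a rise. Without the highest 1% of cells no member passed.

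At day 12 the 2 engineered modules were set beside each other. PD1d/IL-33 over PD1d/IL-2v ACT in CD8 T-gated cells had Xcl1 11.6-fold lower (−3.54, −3.69 to −3.39), Ccl1 6.44-fold lower (−2.69, −2.92 to −2.46), Ccl3 3.82-fold lower (−1.93, −2.11 to −1.76) and Ccl4 1.58-fold lower (−0.66, −0.73 to −0.58), with Ccl5 2.88-fold higher (1.53, 1.5 to 1.55). That made 4 of 5 members against 11.0% of all genes. Median depth over all passing cells was 4813 UMIs in PD1d/IL-33 ACT and 7297 in PD1d/IL-2v ACT. With the later filter Xcl1 was at −2.15, Ccl3 at −1.22 and Ccl1 at −0.55. The activation list went with them as a count, 7 of its 14 measured genes being at least 2-fold lower and 0 higher, with a median of −1.26. NK-gated cells of the same 2 libraries differed less in Xcl1 (−0.44, −0.61 to −0.28), and Ccl3 and Ccl4 were both 1.59-fold higher. The 1 of 5 members past 2-fold, against 15.8% of all genes, was Ccl1, with 0 UMIs in PD1d/IL-33 ACT. Set to 3 counts, that 0 put Ccl1 17.9-fold lower (log2 −4.16), with −3.86 as the upper end of the counting interval. Of the 455 UMIs behind that value 259 lay in 1 cell, and without the highest 1% of cells PD1d/IL-2v ACT was at 1.29 CPM, under the 8.01 CPM that the 0 allows, so no ratio could be given. Without the highest 1% of cells the NK Ccl3 ratio turned from 0.67 to −0.41.

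PD1d/IL-2v/IL-33 over PD1d/IL-2v ACT at day 12 had 4 of 5 members at least 2-fold lower in CD8 T-gated cells, against 10.4% of all genes past 2-fold in either direction: Xcl1 by 8.51-fold (−3.09, −3.16 to −3.01), Ccl4 by 3.44-fold (−1.78, −1.84 to −1.72), Ccl1 by 3.20-fold (−1.68, −1.78 to −1.58) and Ccl3 by 2.59-fold (−1.37, −1.47 to −1.28). Ccl5 lay at −0.13 (−0.15 to −0.11). With the later filter 1 of these 4, Xcl1 at −1.31, stayed past 2-fold, Ccl4 was at −0.60, Ccl3 at −0.25 and Ccl1 turned to 0.39. In NK-gated cells Ccl3 was 6.36-fold (−2.67, −2.94 to −2.41) and Ccl4 4.80-fold lower (−2.26, −2.39 to −2.14), and Ccl1 17.7-fold lower on 15 against 455 UMIs (−4.15, −4.99 to −3.41), which made 3 of 5 against 13.3%. Of those 455 Ccl1 UMIs 259 lay in 1 cell, so the Ccl1 value rests on few cells.

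Against PD1d/IL-33 ACT, the day 12 PD1d/IL-2v/IL-33 library had Ccl5 3.15-fold lower (−1.66, −1.68 to −1.63), Ccl4 2.18-fold lower (−1.12, −1.21 to −1.04) and Ccl1 2.01-fold higher (1.01, 0.77 to 1.25) in CD8 T-gated cells, 3 of 5 members against 6.92% of all genes. Xcl1 (0.45, 0.29 to 0.62) and Ccl3 (0.56, 0.38 to 0.75) stayed within 2-fold, and the Ccl1 value moved between 0.61 and 5.11 over the alternative settings. With the later filter Ccl4 was at −0.35 and Ccl5 at −1.03. In NK-gated cells Ccl3 was 10.1-fold (−3.34, −3.65 to −3.03) and Ccl4 7.63-fold lower (−2.93, −3.09 to −2.78), 2 of the 4 members with at least 50 UMIs against 7.91%. These 3 day 12 comparisons share their libraries pairwise and are not independent of each other.

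Within PD1d/IL-2v/IL-33 ACT, day 12 over day 5 had 3 of 5 members at least 2-fold lower in CD8 T-gated cells, against 3.90% of all genes past 2-fold: Ccl4 by 7.19-fold (−2.85, −2.91 to −2.79), Ccl3 by 6.64-fold (−2.73, −2.82 to −2.65) and Xcl1 by 3.99-fold (−2.0, −2.08 to −1.91). Ccl5 lay at −0.72 (−0.74 to −0.69) and Ccl1 at −0.12 (−0.25 to 0.02), a value that ran from −0.82 to 2.50 over the alternatives. Ccl3 and Ccl4 remained past 2-fold with the later filter, at −1.45 and −1.51, and Xcl1 was then at −0.86. NK-gated cells shared the direction for Ccl3 (4.68-fold lower) and Ccl4 (3.95-fold lower), with Ccl1 3.31-fold lower on 15 against 89 UMIs and Xcl1 2.2-fold higher (1.14, 1.01 to 1.26), 4 of 5 members against 4.77%.

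Day 26 over day 12 of the same treatment had 1 of 5 members past 2-fold in CD8 T-gated cells, against 14.8% of all genes: Ccl5 was 2.45-fold higher (1.29, 1.27 to 1.31), with Ccl4 at 0.85 (0.79 to 0.91), Xcl1 at 0.74 (0.67 to 0.82), Ccl3 at 0.16 and Ccl1 at −0.03. With the later filter Ccl5 was at 0.73, Xcl1 at −1.20 and Ccl1 at −1.96, and without the highest 1% of cells Xcl1 was at −0.38. Median depth differed here, as in other comparisons, at 5277 UMIs per CD8 T-gated cell on day 26 against 8003 on day 12. In NK-gated cells Ccl3 was 5.06-fold (2.34, 1.95 to 2.72) and Ccl4 3.18-fold higher (1.67, 1.46 to 1.87), 2 of 4 against 19.3%, on 62 day 26 cells.

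In the order of these 7 comparisons, the median log2 ratio of the members in CD8 T-gated cells was 1.49, −0.24, −1.93, −1.68, 0.45, −2.0 and 0.74, beside −0.13, 0.03, −0.05, −0.15, −0.11, −0.19 and 0.20 over all genes measured. In NK-gated cells it was −0.25, 0.54, 0.19, −2.26, −1.90, −1.72 and 1.23, beside −0.22, 0.00, −0.10, −0.28, −0.18, −0.22 and 0.24. The median of the activation list in CD8 T-gated cells stayed within 2-fold in 6 of the 7 comparisons, between −0.55 and 0.22. The exception was PD1d/IL-33 over PD1d/IL-2v ACT. Single genes of the list did move in those 6. In the same order, 1, 2, 1, 4, 1 and 2 genes were at least 2-fold higher. At least 2-fold lower were 3, 1, 5, 1, 3 and 7, of 15, 13, 14, 13, 14 and 15 measured. Beside these, 11.9, 8.89, 10.4, 6.92, 3.90 and 14.8% of all genes passed 2-fold in either direction.

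**Figure D4:**
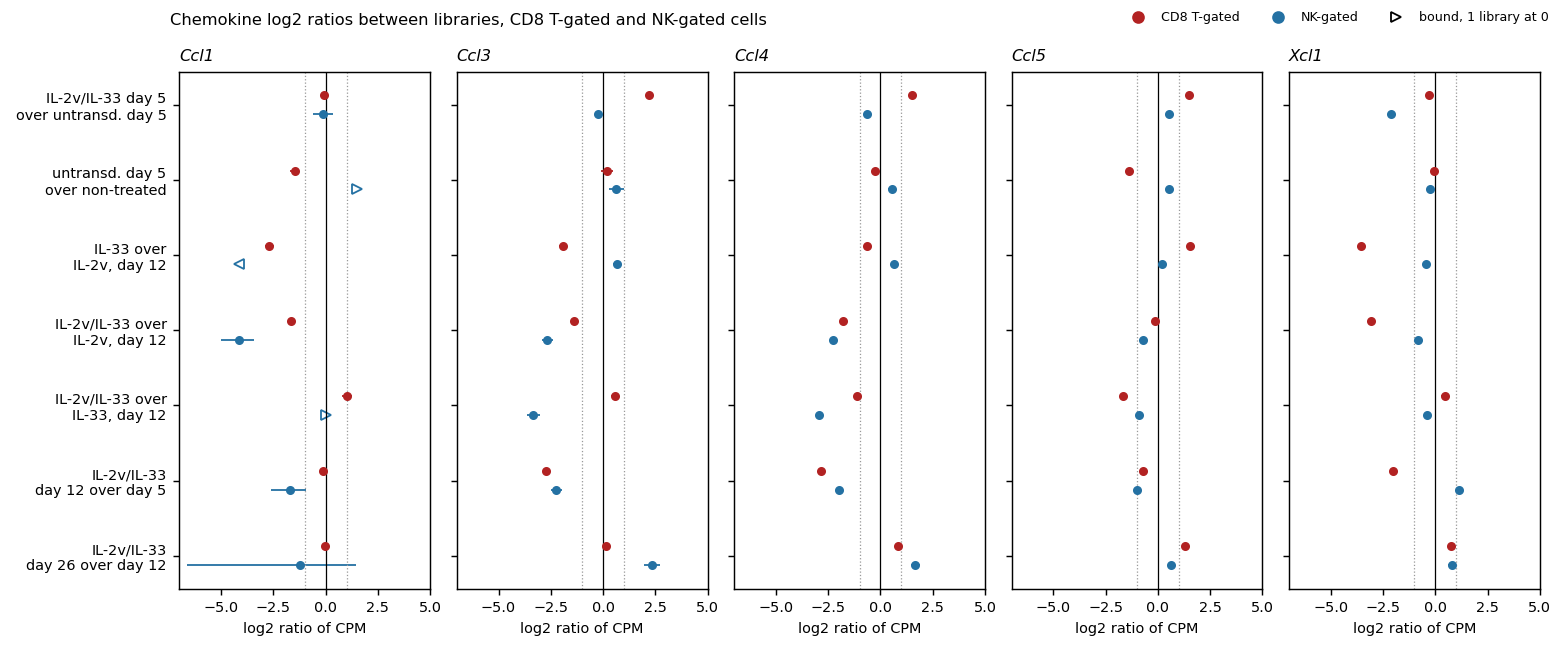
Log2 ratios of CPM for each gene in the 7 comparisons, in CD8 T-gated and NK-gated cells, with 95% counting intervals as bars. For Ccl3 in day 5 PD1d/IL-2v/IL-33 over untransduced ACT the gates stand at 2.21 and −0.25, and for Xcl1 in day 12 PD1d/IL-33 over PD1d/IL-2v ACT at −3.54 and −0.44.

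Genes whose levels were most like a member's were ranked by Pearson's r of log2(CPM + 10) over 35 pairs of gate and library, as a description over points that share libraries and depth. Ccl3 and Ccl4 were each other's first gene (r = 0.96), followed by Slamf7, a receptor of NK and activated lymphoid cells (0.89 and 0.92), and Plek (0.81 and 0.84). For Ccl5 the first were Nkg7, a cytotoxic granule gene, and Txk, a kinase of T and NK cells (0.92 each). For Xcl1 they were Cd160 and Klrc1, 2 receptors of NK and cytotoxic T cells (0.95 each), and for Ccl1 Tcf19 (0.79) and Rgs16 (0.77), a regulator of G protein signals. Ccl1 and Ccl3 were unrelated over these points (−0.01) and Ccl5 with Xcl1 gave 0.84. Over the 8 CD8 T-gated libraries alone, Ccl5 with Xcl1 gave −0.54, Ccl1 with Xcl1 0.82 and Ccl3 with Ccl4 0.83. There Xcl1 lay nearest to Ltv1 (0.98) and Dkc1 (0.97), genes of ribosome assembly, and to Cd160 (0.95), Ccl1 nearest to Foxk1 and Ccl5 nearest to Gprin3 (0.95 each). These were among the first of 6499 genes ranked over only 8 points. How high the first r would be from such a search alone was not computed.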

How the data were processed

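The deposited matrix holds counts: the authors made UMI counts per gene and cell with Cell Ranger 2.2.0 on GRCm38, per the labels (the study's methods name another Cell Ranger version), and deposited 1 matrix of 15700 barcodes in 8 libraries, with 1387032 to 24917112 UMIs each. The strand use and annotation of that counting were not given in the sources used here. The authors' own cell filters were rebuilt (500 to 6000 genes, 2000 to 40000 UMIs, 5 to 60% ribosomal and under 10% mitochondrial UMIs), and libraries were read from the barcode suffix. Gates used raw UMIs of markers, with no member among them, and a gate and library needed 20 cells.

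Levels are CPM of summed UMIs with exact Poisson intervals, and ratios have no pseudocount and exact conditional binomial (Clopper-Pearson) intervals. A count of 0 was set to 3 counts, and the ratio given as a bound. No test was run, since each condition and day is 1 library. Cells were thinned to 2000 UMIs with seed 1. The ratio and thinning steps were tested on simulated data. Python 3.11.15, numpy 2.4.6, scipy 1.17.1, pandas 2.3.3, and edgeR 4.0.16 in R 4.3.3 (TMM factors only) were used. Alternatives changed the cell filter (a later experiment's: 400 to 3000 genes, 500 to 12000 UMIs, under 5% mitochondrial and under 50% ribosomal), the gates, the scaling, the weight of cells, the pseudocount, the thinning and the count minimum, or left out the 1% of cells highest in the gene or the 5% with the most UMIs.

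The members, gene lists and comparisons were chosen with earlier results of these data known. Named genes were the 5 members, their receptors, 12 other chemokines, 16 activation genes and, for each member, the 5 genes most like it among those with at least 500 UMIs. Of the receptor list, 1 gene is not reported here. Tumors were pooled before sequencing, so no value measures the spread between mice.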

Additional observations from a re-analysis of the deposited data

Results flagged for a closer look

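Among 5 members in 7 comparisons, a member moved in opposite directions in CD8 T-gated and NK-gated cells in 7 cases. Both intervals were then off 0, with at least 2-fold in 1 gate. The share of all genes that did so is not given, so the count has no background and marks no trait of these genes. The difference between the gates was not tested, since each library is 1 sample. In day 5 PD1d/IL-2v/IL-33 over untransduced ACT, Ccl3 stood at a log2 ratio of 2.21 in CD8 T-gated and −0.25 in NK-gated cells, and Ccl4 at 1.51 and −0.63. In day 5 untransduced ACT over non-treated tumors, Ccl5 stood at −1.37 and 0.54, and Ccl1 at −1.49 and 1.52. The NK value of Ccl1 came from a non-treated count of 0 set to 3 counts. After thinning, Ccl1 was found in 2 of 377 NK-gated cells of untransduced ACT, so a rise there is not established. In day 12 PD1d/IL-33 over PD1d/IL-2v ACT, Ccl3 stood at −1.93 and 0.67, but without the highest 1% of cells the NK value was −0.41, the same direction as in CD8 T-gated cells. In day 12 PD1d/IL-2v/IL-33 over PD1d/IL-33 ACT, Ccl3 stood at 0.56 and −3.34, with 162 of the 266 NK Ccl3 UMIs of PD1d/IL-33 ACT in 1 cell, and the CD8 T value was −0.31 without the highest 1% of cells. In day 12 over day 5 of PD1d/IL-2v/IL-33 ACT, Xcl1 stood at −2.0 and 1.14. In 3 further cases the directions were opposite with less than 2-fold in either gate: Ccl4 in untransduced ACT over non-treated tumors (−0.24 and 0.53), Ccl4 in PD1d/IL-33 over PD1d/IL-2v ACT (−0.66 and 0.67) and Xcl1 in day 12 PD1d/IL-2v/IL-33 over PD1d/IL-33 ACT (0.45 and −0.38).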

How the results depend on the processing

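No paired analysis was possible because each condition and day is 1 library, and for the same reason no library could be left out. The cell filter moved the CD8 T ratios most. With the later filter 32 of 35 moved beyond their interval, and 1 more, which had been past 2-fold, reversed. That was Ccl1 in day 12 PD1d/IL-2v/IL-33 over PD1d/IL-2v ACT, from −1.68 to 0.39. It was 1 of 6 ratios that changed sign. Among the others were Xcl1 in day 26 over day 12, from 0.74 to −1.20, and Ccl1 in day 12 over day 5, from −0.12 to 2.50. Under the other CD8 T settings between 0 and 5 of 35 changed sign, none of them past 2-fold before. The members past 2-fold in CD8 T-gated cells became 1 with the later filter in that comparison (from 4), 1 in day 12 PD1d/IL-2v/IL-33 over PD1d/IL-33 ACT (from 3), 1 in day 5 untransduced ACT over non-treated (from 2) and 2 in day 26 over day 12 (from 1). Without the 1% highest cells they became 1 in untransduced ACT over non-treated and 3 in day 26 over day 12, and without the 5% of cells with the most UMIs 1 and 2. In NK-gated cells without the 1% highest cells they became 0 (from 1) in untransduced ACT over non-treated and 0 (from 1) in PD1d/IL-33 over PD1d/IL-2v ACT. No share of all genes past 2-fold is given under the later filter or with cells left out. These member counts therefore have no background. TMM factors, the stricter gate, the mean of each cell's CPM and 10 CPM added changed none of these counts by over 1.5 times. TMM shifted every log2 ratio of a comparison by between −0.12 and 0.16 in CD8 T-gated cells and between −0.41 (day 26 over day 12) and 0.27 in NK-gated cells. With a minimum of 10 in place of 50 UMIs, the genes past 2-fold in CD8 T-gated cells were 1887, 1620, 1854, 1773, 1342, 971 and 2342 in the order of the report (1031, 666, 893, 939, 578, 344 and 1460 with 50), and in NK-gated cells 2049, 1110, 2055, 1898, 1501, 1057 and 2410 (1104, 273, 992, 944, 361, 344 and 861). Depth limited the small libraries: in day 12 untransduced ACT, with 36 CD8 T-gated cells, a count of 0 allows up to 12.2 CPM and a share of up to 8.33% of cells.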

Other observations

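CD4 T-gated cells were split by Foxp3, the regulatory T cell factor, after the values had been seen. The 648 cells without a Foxp3 UMI had Ccl1 at 75.5 CPM (65.9 to 86.1) and Ccl5 at 2290 (2236 to 2346), and the 410 cells with one had Ccl1 at 3.24 (1.55 to 5.96) and Ccl5 at 916 (882 to 950). Ccl4 went the other way, at 132 CPM (119 to 146) without and 380 (359 to 403) with Foxp3, but not in every library: it lay at 743 without and 314 with Foxp3 in PD1d/IL-2v ACT, and at 296 and 108 in day 5 untransduced ACT. Ccl1 was lower with Foxp3 in each of the 5 libraries with at least 20 cells on both sides, with 0 UMIs in 3 of them.

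Myeloid-gated cells were split the same way by C1qa and C1qb, complement genes of macrophages. The 1140 cells with under 5 of these UMIs had Ccl3 at 906 CPM (887 to 925) and Ccl4 at 2846 (2814 to 2880), against 368 (346 to 390) and 1768 (1721 to 1816) in the 268 cells with more. Within day 5 PD1d/IL-2v/IL-33 ACT, which held 136 of those 268 cells, Ccl4 lay at 2301 and 2266 CPM, so there the split did not separate it beyond the intervals.

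Of the other chemokines listed, most lay in myeloid-gated cells, with Cxcl2 at 2379 CPM, Cxcl10 at 1815, Ccl6 at 994, Ccl2 at 751 and Cxcl9 at 684. The mature dendritic cell gate held Ccl22 at 1268 CPM, Cxcl16 at 904 and Ccl17 at 261.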
